A study of Homo sapiens with 6 samples.

Results

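The semaphorin, ephrin, Slit and netrin guidance genes were examined after knockdown of EIF5A2. Members were all protein-coding genes of the table whose symbols begin with PLXN or UNC5, or with SEMA, EPHA, EPHB, EFNA, EFNB, SLIT, ROBO or NTN followed by a digit, together with NRP1, NRP2, DCC and NEO1. Genes of the SLITRK and NTNG series were left out. This gave 73 of the 58825 genes in the table: 20 semaphorins, 9 plexins, 2 neuropilins, 14 Eph receptors, 9 ephrin entries, 3 Slits, 4 Robos, 4 netrins, 6 netrin receptors, and 2 further genes, UNC50 and UNC5CL, which the spelling caught. One of the ephrin entries, EFNA4-EFNA3, is a readthrough of 2 neighbouring genes. UNC50 is not a netrin receptor and is kept apart from the families below. A further 16 genes with such symbols are not protein coding and were not members.

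RNA-seq was performed 48 h after transfection of cells labelled SKOV3, a human epithelial ovarian cancer line, on 3 libraries of cells given a negative control siRNA (NC) and 3 of cells given si-EIF5A2. The study lists a single siRNA duplex against EIF5A2, and both groups carry the same parental line with no other agent named in the labels. EIF5A2 is one of the 2 human forms of the translation factor eIF5A. The labels do not say whether the libraries of a group came from separate cultures, so p-values measure the spread between these libraries, which may be technical. Since RNA was taken from whole cultures, fewer cells expressing a gene and less RNA per cell cannot be told apart.

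Guidance cues were first described in growing axons and are also used by epithelial, vascular and tumor cells to steer movement, adhesion and sorting. Semaphorins signal through plexins, with neuropilins as the binding partner for most secreted class 3 members. Ephrins are anchored to the membrane and bind Eph receptor tyrosine kinases on neighbouring cells, while Slits bind Robo receptors and netrins bind DCC, neogenin (NEO1) and the UNC5 receptors.

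Deposited estimated counts summed to between 46900204 and 74142267 per library. Levels are given as CPM for comparing libraries or as TPM for comparing genes. CPM are counts scaled to the library total over the genes tested and to a normalization factor (TMM). TPM are corrected for gene length and not by that factor. A gene was called when edgeR's quasi-likelihood test gave a Benjamini-Hochberg adjusted p under 0.05 over all 16208 genes tested and the fold change exceeded 1.5. EIF5A2 itself was measured at 27.8, 29.8 and 29.9 CPM in NC and at 2.76, 4.04 and 4.27 CPM after si-EIF5A2. The groups did not overlap, and the remaining level was 12.7% of NC (log2 fold change -2.98, SE 0.18, adjusted p = 1.6e-05 in edgeR; exact 2-sided permutation p = 0.1, the smallest that 3 against 3 libraries allow). Of 9 epithelial ovarian carcinoma markers, 8 exceeded 1 CPM in every library and MUC16 was at 0 counts in all 6. Of the 8, EPCAM (1.15 to 1.68 CPM), WT1 (1.89 to 3.74 CPM) and KRT19 (2.24 to 3.85 CPM) were low. The summed epithelial markers were 1510 to 1670 CPM in NC and 958 to 1170 CPM after si-EIF5A2, with KRT7, KRT8 and PAX8 called lower. ERBB2, which SKOV3 is known to carry in extra copies, had a mean of 12.3 TPM in NC and ranked 6460th among all genes. This level goes against the label, and whether the cells are SKOV3 was not tested.

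Of the 73 members, 52 had enough counts to be tested and 21 did not, the latter reaching at most 0.268 CPM in any library. Of these 21, 11 had no count in any library. Among the 52 tested, 24 were called (46.2%), beside 24.6% of all genes tested. A total of 14 were higher after si-EIF5A2 and 10 were lower, while 11.1% of all genes tested were called higher and 13.6% lower. The median log2 fold change of the members tested was -0.02 and that of all genes -0.01. Another 5 members passed the adjusted p but not the fold limit, which makes 29 of 52 at any fold beside 36.9% of all genes. Levels in the groups were fully separate for 35 of the 52 members, beside 51.2% of all genes. At the threshold in the study's methods, an unadjusted p under 0.05 and a fold over 2, 15 members passed (8 higher and 7 lower), beside 14.6% of all genes.

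**Figure D1:**
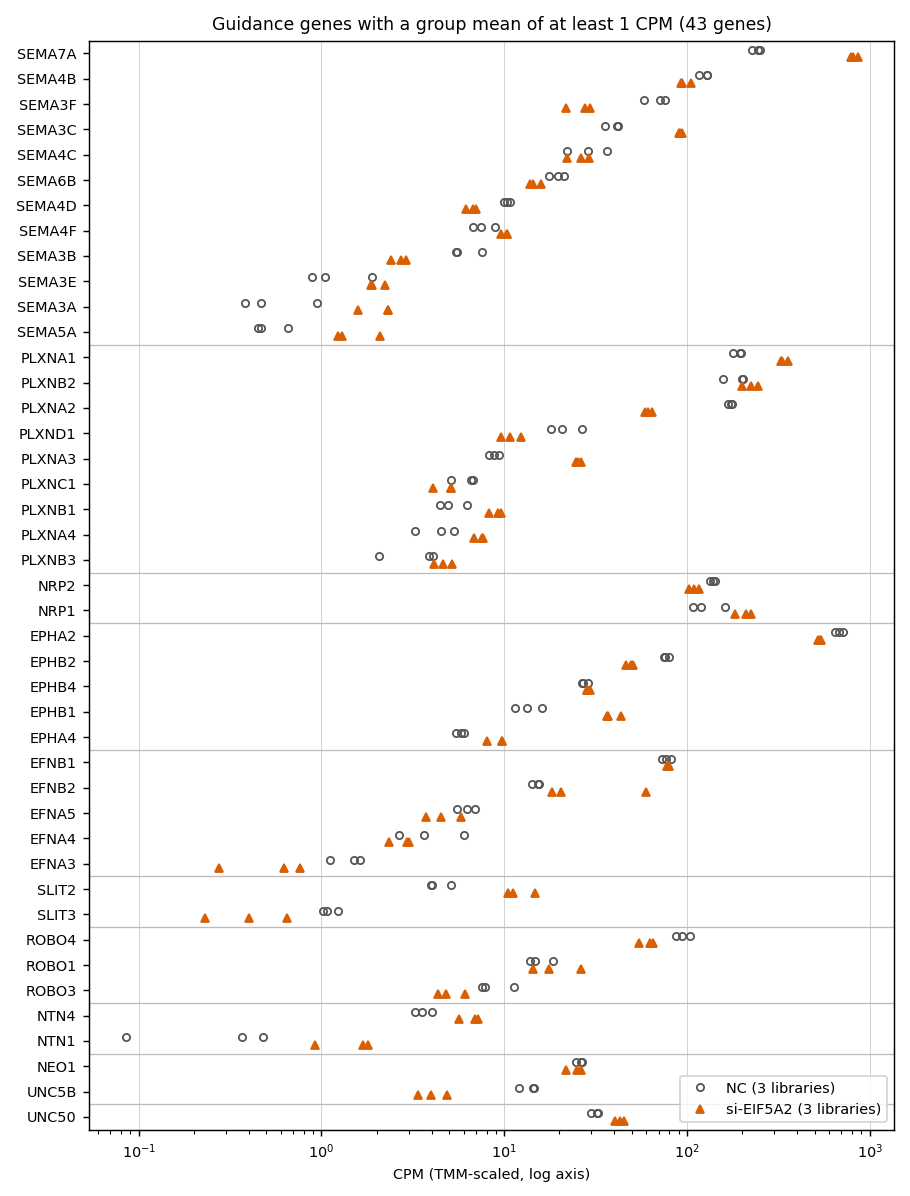
CPM in each library, on a log axis, of the 43 members with a group mean of at least 1 CPM; open circles are the 3 NC libraries, triangles the 3 si-EIF5A2 libraries, and lines separate the families in the order semaphorin, plexin, neuropilin, Eph receptor, ephrin, Slit, Robo, netrin, netrin receptor and UNC50. The libraries of a group lie close together for SEMA7A, SEMA3C, PLXNA1, PLXNA2 and PLXNA3 and far from the other group, whereas those of EFNB1, EPHB4 and NEO1 lie on top of each other and EFNB2 has a lone high triangle at 59.3 CPM.

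Among the ligands, semaphorins showed the largest total. SEMA7A, a semaphorin held at the cell surface by a lipid anchor and known to signal through plexin C1 and beta-1 integrin, was at 252, 246 and 227 CPM in NC and at 792, 860 and 813 CPM after si-EIF5A2. Every si-EIF5A2 library was above every NC library, and the distance between groups was many times the spread within them. The change was a 3.4-fold rise (log2 fold change 1.77, SE 0.07, adjusted p = 5.17e-06 in edgeR). In TPM, SEMA7A went from 176 ± 5.82 to 628 ± 7.54 (SD, n = 3) and from the second to the first place among the members. PLXNC1, its plexin, stayed low, at 6.71, 5.14 and 6.55 CPM in NC and 5.14, 4.1 and 5.11 CPM after si-EIF5A2. That difference was not called (log2 fold change -0.36, SE 0.18, adjusted p = 0.161).

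The starts of the most changed members at 10 CPM or more were read from RefSeq promoters, each 250 bases before and 50 bases after the gene's start. These members are shown so that the sequence ahead of the largest shifts in both directions can be compared; UNC5B, which also met the rule, is named only. Capitals mark GC boxes, GGGCGG or its reverse complement. SEMA7A lies on the minus strand and its window is chr15:74433909-74434208 (GRCh38.p14), PLXNA3 lies on the plus strand at chrX:154458031-154458330, and PLXNA2 lies on the minus strand at chr1:208244335-208244634.
SEMA7A: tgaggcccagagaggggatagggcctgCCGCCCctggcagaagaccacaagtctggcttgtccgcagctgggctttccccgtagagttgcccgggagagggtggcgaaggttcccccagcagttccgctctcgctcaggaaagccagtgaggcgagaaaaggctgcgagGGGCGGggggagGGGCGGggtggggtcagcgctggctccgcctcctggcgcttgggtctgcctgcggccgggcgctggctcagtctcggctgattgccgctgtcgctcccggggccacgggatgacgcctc
PLXNA3: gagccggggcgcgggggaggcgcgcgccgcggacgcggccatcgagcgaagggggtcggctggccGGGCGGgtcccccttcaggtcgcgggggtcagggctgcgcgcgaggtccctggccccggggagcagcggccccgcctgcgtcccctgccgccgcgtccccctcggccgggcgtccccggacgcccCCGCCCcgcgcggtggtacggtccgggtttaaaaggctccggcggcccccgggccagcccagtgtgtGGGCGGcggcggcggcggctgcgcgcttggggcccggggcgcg
PLXNA2: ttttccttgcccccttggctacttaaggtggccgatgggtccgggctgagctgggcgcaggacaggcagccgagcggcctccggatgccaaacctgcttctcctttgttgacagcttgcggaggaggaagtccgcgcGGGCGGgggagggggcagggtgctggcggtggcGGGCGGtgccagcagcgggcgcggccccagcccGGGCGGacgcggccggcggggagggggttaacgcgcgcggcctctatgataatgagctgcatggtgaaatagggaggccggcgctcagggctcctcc
All 3 windows were GC-rich (70.0%, 83.3% and 70.3%) and each held 3 GC boxes. In SEMA7A they began 223, 81 and 69 bases before the start. Those of PLXNA2, which changed in the opposite direction, began 113, 80 and 47 bases before it. None of the 3 windows held the other motifs, which were searched on both strands: the AP-1 site TGANTCA, the E-box with the letters CACGTG, the TATA box read as TATAAA, and the E2F site in its form TTTGGCG or in the related forms written as TTTCCCG and, with another middle, as TTTCGCG. Of the 63 members with a promoter in the table, 49 held a GC box (77.8%), beside 69.5% of the promoters of genes tested and 44.6% of all 27305 promoters. The box was present in 8 of 11 members called higher, in 8 of 9 called lower and in 20 of 25 tested but not called. E2F letters were found in 9.52% of the members, beside 11.4% of the promoters of genes tested and 7.28% of all promoters.

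Class 3 semaphorins, the secreted members, changed in both directions. SEMA3C, a ligand of neuropilins known for its role in heart and vessel patterning, was at 35.7, 41.9 and 41.6 CPM in NC and at 94.3, 90.3 and 91.9 CPM after si-EIF5A2. It rose 2.32-fold with no overlap between groups (log2 fold change 1.21, SE 0.09, adjusted p = 3.86e-05). SEMA3F, which repels vessels and tumor cells mainly through NRP2, was at 76, 71.2 and 58.2 CPM in NC and at 21.9, 27.5 and 29.4 CPM after si-EIF5A2. Its highest si-EIF5A2 library was well below its lowest NC library, and it fell to 0.384 of NC (log2 fold change -1.38, SE 0.14, adjusted p = 0.000227). SEMA3B, also known as a growth-inhibiting semaphorin, fell from 7.54, 5.43 and 5.53 CPM to 2.39, 2.91 and 2.71 CPM (log2 fold change -1.21, SE 0.2, adjusted p = 0.0022). SEMA3A, the classical collapsing factor of growth cones, was rare, at 0.466, 0.946 and 0.383 CPM in NC and 1.58, 2.3 and 2.31 CPM after si-EIF5A2. It was called higher (log2 fold change 1.77, SE 0.41, adjusted p = 0.0113), at a level where 3 sequenced fragments are worth 0.15 to 0.237 CPM. SEMA3D and SEMA3E had positive changes of 0.80 (SE 0.43, adjusted p = 0.196) and 0.65 (SE 0.34, adjusted p = 0.183) on the log2 scale and were not called, although SEMA3E was called when NC replicate 2 was left out.

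The class 3 members fell into groups by chromosome, a grouping noticed after the values were seen. SEMA3C, SEMA3E, SEMA3D and SEMA3A lie together in 4440 kb of chromosome 7 (chr7:80742538-85186855, GRCh38), and their log2 fold changes were all above 0. SEMA3F and SEMA3B are neighbours within 123 kb of chromosome 3 (chr3:50155045-50277546), and both were called lower. Of the other protein-coding genes in these intervals, 2 of 3 were tested on chromosome 7 and 1 of 3 on chromosome 3. None of those tested was called in the direction of the semaphorins beside it, and whether position plays a part was not tested. PCLO, which codes for a presynaptic scaffold protein and lies in the chromosome 7 interval, was called lower (log2 fold change -1.57, adjusted p = 0.0108), and CACNA2D1, a calcium channel subunit beside it, had a change of -0.10 (adjusted p = 0.641). GNAI2, a G protein subunit between SEMA3F and SEMA3B, was called higher (log2 fold change 0.60, adjusted p = 0.000283).

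Among the transmembrane semaphorins, 1 was called higher and 1 lower. SEMA4D, the ligand of PLXNB1, was at 10.4, 9.99 and 10.7 CPM in NC and at 6.98, 6.21 and 6.75 CPM after si-EIF5A2. Its groups were tight and separate (log2 fold change -0.64, SE 0.13, adjusted p = 0.00524). SEMA5A, which carries thrombospondin repeats and binds PLXNB3, was low in every library, from 0.447 to 0.658 CPM in NC and from 1.23 to 2.08 CPM after si-EIF5A2. It was called higher (log2 fold change 1.55, SE 0.38, adjusted p = 0.0138), but without si-EIF5A2 replicate 3, its highest library, the adjusted p was 0.0603. SEMA4B, the most abundant class 4 member, was at 128, 129 and 117 CPM in NC and at 94.4, 105 and 93.1 CPM after si-EIF5A2. This small fall passed the adjusted p (0.0101) but not the fold limit (log2 fold change -0.36, SE 0.08). SEMA6B also passed the adjusted p alone (17.5 to 21.3 CPM in NC, 13.8 to 15.9 CPM after si-EIF5A2, log2 fold change -0.41, SE 0.12, adjusted p = 0.0294). Its adjusted p rose to 0.0924 without NC replicate 1, 0.0888 without NC replicate 2, 0.0757 without si-EIF5A2 replicate 1, 0.0873 without si-EIF5A2 replicate 3 and 0.0581 with the replicate number as a block. SEMA4C ranged from 22 to 36.3 CPM in NC and from 22.1 to 29.1 CPM after si-EIF5A2, so the groups overlapped (log2 fold change -0.17, SE 0.19, adjusted p = 0.534). SEMA4F had separate groups, 6.74 to 8.88 CPM against 9.57 to 10.3 CPM, and an adjusted p of 0.0733. The remaining semaphorins tested, SEMA4A, SEMA4G, SEMA6A, SEMA6C and SEMA6D, stayed under 2 CPM in every library and were not called, SEMA6D being called only without si-EIF5A2 replicate 3. SEMA4G shares 22.3% of its exon bases with MRPL43 on the opposite strand, and whether counting used strand is not given. SEMA3G and SEMA5B were not tested.

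Of the receptors of semaphorins, all 9 plexins were tested and 6 were called (66.7%, beside 24.6% of all genes), 4 higher and 2 lower. PLXNA2, a class A plexin that pairs with neuropilins and also binds class 6 semaphorins, was at 175, 177 and 167 CPM in NC and at 60.9, 59 and 64.2 CPM after si-EIF5A2. The libraries of each group agreed closely and the groups were far apart (log2 fold change -1.50, SE 0.07, adjusted p = 7.28e-06). PLXNA1, another class A plexin, was at 196, 197 and 179 CPM in NC and at 331, 359 and 328 CPM after si-EIF5A2. It changed in the opposite direction, with a 1.78-fold rise (log2 fold change 0.83, SE 0.07, adjusted p = 0.000105). PLXNA3 rose from 9.39, 8.27 and 8.78 CPM to 25.2, 24.6 and 26.3 CPM (log2 fold change 1.52, SE 0.11, adjusted p = 3.05e-05). PLXNA4, the least abundant class A plexin, was at 3.25, 5.32 and 4.51 CPM in NC and 6.87, 7.62 and 7.59 CPM after si-EIF5A2. It was called higher (log2 fold change 0.76, SE 0.2, adjusted p = 0.0204), and the call was lost without NC replicate 1 (log2 fold change 0.58), NC replicate 3 (adjusted p = 0.0521), si-EIF5A2 replicate 2 (0.0584) or si-EIF5A2 replicate 3 (0.0586). Thus 3 of the 4 class A plexins were called higher and PLXNA2 was called lower.

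PLXND1, the receptor of SEMA3E in vessels, was at 20.8, 26.6 and 18.1 CPM in NC and at 9.58, 12.4 and 10.7 CPM after si-EIF5A2. It was called lower with no overlap (log2 fold change -1.01, SE 0.17, adjusted p = 0.00254). PLXNB1, the SEMA4D receptor, rose from 6.28, 4.95 and 4.45 CPM to 8.2, 9.2 and 9.55 CPM (log2 fold change 0.78, SE 0.17, adjusted p = 0.00856), so this ligand and its receptor changed in opposite directions. PLXNB2, a receptor of class 4 semaphorins and the most abundant plexin per length in NC at 70.9 TPM, ranged from 158 to 202 CPM in NC and from 201 to 244 CPM after si-EIF5A2. These ranges overlapped and it was not called (log2 fold change 0.26, SE 0.12, adjusted p = 0.126). PLXNB3 was not called either (log2 fold change 0.47, SE 0.27, adjusted p = 0.22). It shares 20.4% of its exon bases with SRPK3 on the same strand, so its counts are less certain.

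NRP1, the co-receptor of SEMA3A, SEMA3C and of VEGF, was at 108, 120 and 161 CPM in NC and at 211, 184 and 224 CPM after si-EIF5A2. The groups did not overlap, but NC replicate 3 stood above the other NC libraries. NRP1 was called higher (log2 fold change 0.67, SE 0.16, adjusted p = 0.0125). Without NC replicate 1 the log2 fold change was 0.55, under the fold limit, at an adjusted p of 0.0312. NRP2, the preferred partner of SEMA3F, was at 134, 142 and 139 CPM in NC and at 103, 109 and 116 CPM after si-EIF5A2. It had a small fall that passed the adjusted p alone (log2 fold change -0.34, SE 0.07, adjusted p = 0.00795).

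**Figure D2:**
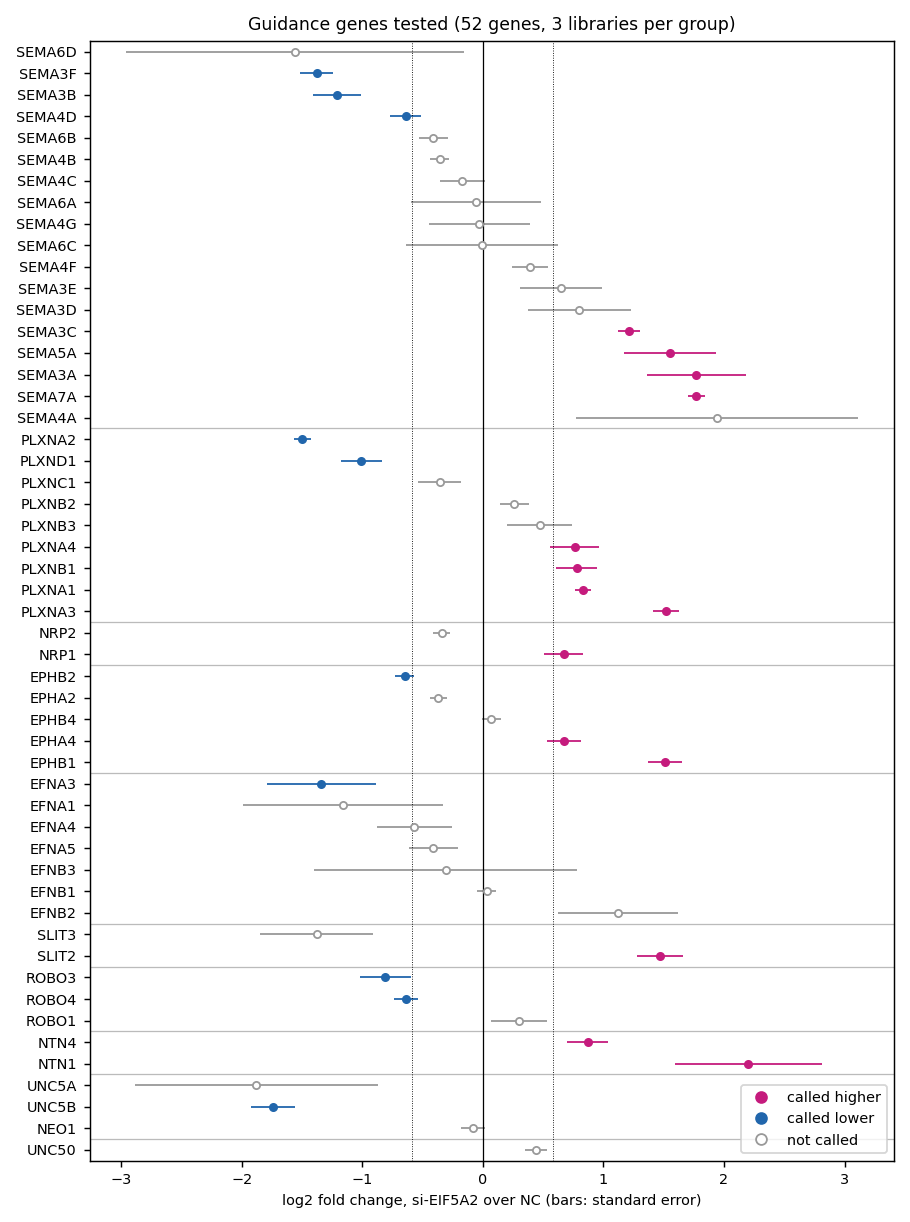
Log2 fold change of si-EIF5A2 over NC with its standard error for the 52 members tested, grouped by family as in the plot of levels; filled points are called higher or lower, open points are not called, and dotted lines mark a fold of 1.5. Called members lie on both sides of 0 within semaphorins, plexins and Eph receptors, and the wide bars belong to members of low level such as SEMA6D, SEMA4A, EFNB3 and UNC5A.

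Opposite changes of close relatives shifted the balance between them. The 4 pairs that follow were chosen after the values were seen, and the ratios of TPM within a library are descriptions of the changes tested above. PLXNA1 over PLXNA2 was 1.41, 1.4 and 1.35 in NC and 6.84, 7.66 and 6.44 after si-EIF5A2. The 2 plexins were close in NC and PLXNA1 led clearly in each si-EIF5A2 library. NRP1 over NRP2 was 0.974, 1.02 and 1.39 in NC and 2.47, 2.04 and 2.34 after si-EIF5A2. SEMA3C over SEMA3F turned round, from 0.362, 0.453 and 0.551 in NC to 3.31, 2.53 and 2.4 after si-EIF5A2. EPHB1 over EPHB2 did the same in TPM, from 0.26, 0.321 and 0.383 to 1.67, 1.33 and 1.31. This turn depends on the correction for gene length. In CPM, EPHB1 stayed below EPHB2 in each si-EIF5A2 library (43.4, 36.5 and 37 against 46.6, 49.6 and 50.8 CPM). In all 4 pairs the ranges of the groups were separate.

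Among the Eph receptors, which are kinases read on contact with a neighbouring cell, 5 of 14 were tested and 3 were called. Of these 3, 2 were higher and 1 lower, while 24.6% of all genes tested were called. EPHA2, the predominant Eph receptor of many carcinomas, was the most abundant member in NC at 453 ± 12.2 TPM (SD, n = 3). It was at 718, 679 and 649 CPM in NC and at 519, 531 and 538 CPM after si-EIF5A2. The groups were separate, but the fall was under the fold limit (log2 fold change -0.37, SE 0.07, adjusted p = 0.00372). EPHB1 was at 11.5, 13.4 and 16 CPM in NC and at 43.4, 36.5 and 37 CPM after si-EIF5A2, a 2.86-fold rise without overlap (log2 fold change 1.51, SE 0.14, adjusted p = 0.000134). EPHB2, a receptor of B ephrins like EPHB1, went the other way, from 79.6, 75.2 and 75.4 CPM to 46.6, 49.6 and 50.8 CPM (log2 fold change -0.65, SE 0.08, adjusted p = 0.000425). EPHA4, which binds ephrins of both classes, rose from 5.77, 5.42 and 6.04 CPM to 9.68, 8.07 and 9.72 CPM (log2 fold change 0.67, SE 0.14, adjusted p = 0.00735). EPHB4, the EFNB2 receptor of veins, lay between 26.6 and 29.6 CPM in all 6 libraries and did not pass the test (log2 fold change 0.07, SE 0.08, adjusted p = 0.559). EPHA1, EPHA3, EPHA5, EPHA6, EPHA7, EPHA8, EPHA10, EPHB3 and EPHB6 were not tested.

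Of the ephrins, the ligands of these receptors, 1 of 7 tested was called (14.3%, beside 24.6% of all genes). EFNB1, the most abundant ephrin, was between 72.7 and 81.3 CPM in NC and between 77.5 and 80 CPM after si-EIF5A2. The si-EIF5A2 libraries lay inside the range of NC (log2 fold change 0.03, SE 0.08, adjusted p = 0.777). EFNB2, a ligand of EPHB4 and of the other B receptors, was at 15.4, 15.3 and 14.1 CPM in NC and at 20.4, 18.2 and 59.3 CPM after si-EIF5A2. All 3 si-EIF5A2 libraries were above NC, but replicate 3 was far above the other two, and EFNB2 was not called (log2 fold change 1.12, SE 0.5, adjusted p = 0.148). Without that library the log2 fold change was 0.36 (SE 0.13, adjusted p = 0.0707). EFNA3 was at 1.62, 1.5 and 1.11 CPM in NC and at 0.274, 0.766 and 0.625 CPM after si-EIF5A2, and was called lower close to the threshold (log2 fold change -1.34, SE 0.45, adjusted p = 0.0479). Leaving out any one library other than si-EIF5A2 replicate 2 lost this call, with adjusted p between 0.062 and 0.135. EFNA3 also shares 44.7% of its exon bases with the readthrough EFNA4-EFNA3, which had no counts. EFNA1, EFNA4, EFNA5 and EFNB3 were not called, with log2 fold changes from -1.16 to -0.31, although EFNA1 was called without si-EIF5A2 replicate 2. EFNA2 and EFNA4-EFNA3 had no counts.

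SLIT2, a secreted repellent of axons and migrating cells, was at 4, 3.97 and 5.1 CPM in NC and at 14.7, 11.1 and 10.5 CPM after si-EIF5A2. It rose 2.77-fold with separate groups (log2 fold change 1.47, SE 0.19, adjusted p = 0.000569). SLIT3 was lower in each si-EIF5A2 library, 1.23, 1.07 and 1.02 CPM against 0.645, 0.402 and 0.229 CPM, and just missed the threshold (log2 fold change -1.38, SE 0.47, adjusted p = 0.0517). It was called in 5 of 13 other fits, among them DESeq2 and the fit without si-EIF5A2 replicate 1. SLIT1 was not tested. Of the Robos, ROBO4, best known from endothelium, was at 104, 87.4 and 94.3 CPM in NC and at 62.6, 54.9 and 65.3 CPM after si-EIF5A2. It was called lower (log2 fold change -0.64, SE 0.1, adjusted p = 0.00169), near the fold limit, and its change fell under that limit without NC replicate 1 (-0.58) or si-EIF5A2 replicate 2 (-0.57). ROBO3, which regulates midline crossing, was at 11.3, 7.57 and 7.83 CPM in NC and at 4.34, 6.07 and 4.8 CPM after si-EIF5A2 (log2 fold change -0.81, SE 0.21, adjusted p = 0.0186). This call was lost without NC replicate 1 (adjusted p = 0.0568), si-EIF5A2 replicate 1 (0.0626) or si-EIF5A2 replicate 3 (0.057). ROBO1, the broadly expressed Slit receptor, overlapped between groups, at 13.9 to 18.5 CPM and 14.3 to 26.2 CPM (log2 fold change 0.30, SE 0.23, adjusted p = 0.362). ROBO2 was not tested.

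Because ROBO4 is best known from endothelial cells, the 6 endothelial markers are given beside it. All 6 had a count in some library and 1, TIE1, exceeded 1 CPM in every library. Their summed level was 356 to 390 CPM in NC and 258 to 275 CPM after si-EIF5A2. TIE1 made up most of it, at 328 to 359 CPM in NC and 257 to 273 CPM after si-EIF5A2. CDH5, the defining adhesion protein of endothelium, was at 25.9 to 30 CPM in NC and under 1 CPM after si-EIF5A2, and was called lower. PECAM1 did not exceed 2.04 CPM in any library. The part of these markers in the ROBO4 change was not tested. Of 6 neuronal markers, STMN2, ELAVL3 and ELAVL4 were at 0 in all libraries, and the sum was 5.34 to 7.94 CPM in NC and 5.02 to 5.95 CPM after si-EIF5A2. RBFOX3 was called lower (1.66 to 3.1 CPM in NC, 0 to 0.23 CPM after si-EIF5A2, adjusted p = 0.0152), while SYT1, which made up most of the sum, was at 3.57 to 4.8 CPM and 4.71 to 5.8 CPM and was not called (adjusted p = 0.151). The fibroblast sum was 0.872 to 1.41 CPM in NC and 0.86 to 3.23 CPM after si-EIF5A2, with PDGFRB called lower (0.26 to 0.808 CPM in NC, 0 to 0.0834 CPM after si-EIF5A2, adjusted p = 0.0222).

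Netrins were scarce. NTN4, a basement membrane netrin, was at 3.25, 3.54 and 4.04 CPM in NC and at 6.88, 5.67 and 7.21 CPM after si-EIF5A2, and was called higher (log2 fold change 0.87, SE 0.17, adjusted p = 0.00559). NTN1, the classical attractant, was at 0.48, 0.367 and 0.0851 CPM in NC and at 0.919, 1.69 and 1.79 CPM after si-EIF5A2. It was higher in each si-EIF5A2 library (log2 fold change 2.20, SE 0.61, adjusted p = 0.0237), from an NC level near what 3 fragments are worth. Its adjusted p was 0.0556 without NC replicate 2, 0.0689 without si-EIF5A2 replicate 2, 0.0722 without si-EIF5A2 replicate 3 and 0.0571 in a fit with the replicate number as a block. NTN3 and NTN5 were not tested.

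Of the netrin receptors, UNC5B, a dependence receptor that also guides vessels, was at 14.4, 14.5 and 12 CPM in NC and at 3.95, 3.39 and 4.86 CPM after si-EIF5A2. It fell to 0.298 of NC, the lowest ratio among members at 10 CPM or more, and the groups were far apart (log2 fold change -1.74, SE 0.18, adjusted p = 0.000186). NEO1, which binds netrins and repulsive guidance molecules, lay between 21.9 and 26.5 CPM in all 6 libraries (log2 fold change -0.08, SE 0.1, adjusted p = 0.588). UNC5A was low, at 0.574 to 1.19 CPM in NC and 0 to 0.45 CPM, near what 3 fragments are worth, after si-EIF5A2. Its groups did not overlap, but it was not called (log2 fold change -1.88, SE 1.01, adjusted p = 0.195). DCC, the main attractive netrin receptor, had no counts in any library, and UNC5C and UNC5D were not tested. UNC50, a membrane protein of the Golgi and the inner nuclear envelope, was at 30 to 32.7 CPM in NC and 40.5 to 45.4 CPM after si-EIF5A2, which passed the adjusted p (0.00556) at a log2 fold change of 0.44 (SE 0.09), and UNC5CL was not tested.

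Summed per length, the 73 members came to 1220 ± 31.3 TPM in NC and 1660 ± 43.5 TPM after si-EIF5A2 (SD, n = 3), a 1.36-fold difference with no overlap between libraries. SEMA7A alone went from 176 ± 5.82 to 628 ± 7.54 TPM, a rise no smaller than that of the whole sum. The semaphorin sum went from 317 ± 15.2 to 759 ± 9.09 TPM, and SEMA7A made up 55.4% of it in NC and 82.7% after si-EIF5A2. The Eph receptor sum went the other way, from 490 ± 11.3 to 414 ± 12.5 TPM, and EPHA2 made up 92.5% and 89.3% of it. Of all members' TPM, EPHA2 held the largest share in NC (37.0%) and SEMA7A after si-EIF5A2 (37.7%). Plexins summed to 167 ± 11.6 and 209 ± 10.1 TPM, with PLXNB2 leading in NC (42.4%) and PLXNA1 after si-EIF5A2 (43.0%). Ephrin sums, 87.5 ± 5.48 and 98.3 ± 12.7 TPM, overlapped between groups, whereas Slits (1.46 ± 0.196 and 3.72 ± 0.809 TPM) and netrins (2.56 ± 0.279 and 5.27 ± 0.674 TPM) had higher sums after si-EIF5A2 and Robos (44.9 ± 3.94 and 32.5 ± 4.18 TPM) a lower one.

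**Figure D3:**
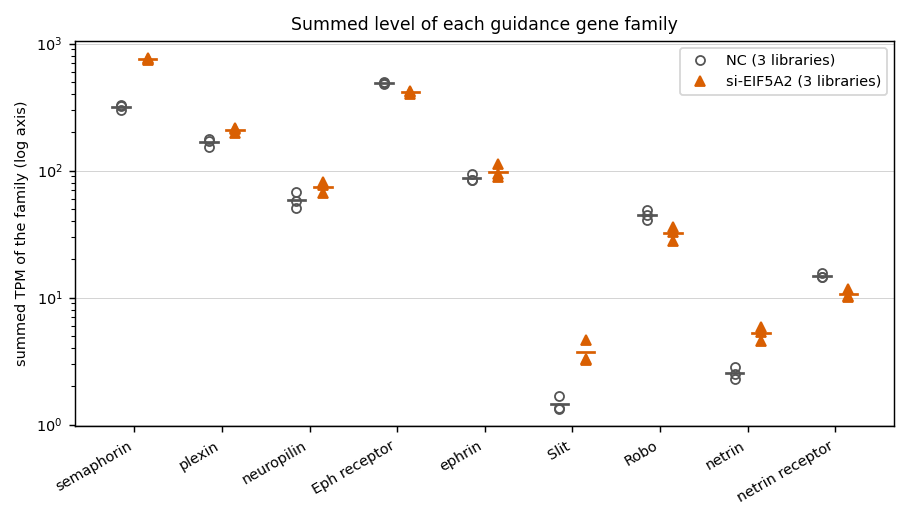
Summed TPM of each family in each library on a log axis, with open circles for the 3 NC libraries, triangles for the 3 si-EIF5A2 libraries and a short line at the mean of each group. Semaphorins pass Eph receptors as the largest family after si-EIF5A2 (759 against 414 TPM), while the ephrin libraries of the groups overlap.

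Downstream of these receptors, a list of 106 co-receptors, further ligands and effectors was examined, of which 96 were tested. Of these, 30 were called (31.2%, beside 24.6% of all genes), 15 higher and 15 lower, with a median log2 fold change of 0.06. Another 23 passed the adjusted p under the fold limit. Of 11 co-receptors tested, 3 were called higher and 1 lower. L1CAM, an adhesion molecule that forms a complex with NRP1, rose from 8.73, 7.11 and 7.49 CPM to 18.9, 21.7 and 20 CPM (log2 fold change 1.38, SE 0.13, adjusted p = 0.000131). GPC1, a heparan sulfate proteoglycan that binds Slits, rose from 15.6, 11.2 and 11.6 CPM to 26.8, 28.7 and 29.3 CPM (log2 fold change 1.14, SE 0.15, adjusted p = 0.000586). Both were separate between groups. Of the leucine-rich repeat proteins, LRIG1 was called higher (log2 fold change 0.88, SE 0.1, adjusted p = 0.000387) and LRIG3 lower (log2 fold change -0.91, SE 0.18, adjusted p = 0.00529). Of 4 further ligands tested, RGMB, a repulsive guidance molecule that binds NEO1, rose from 135, 129 and 133 CPM to 255, 242 and 268 CPM (log2 fold change 0.94, SE 0.07, adjusted p = 4.07e-05). PGF, a growth factor of the VEGF family that binds neuropilins, fell from 9.4, 7 and 9.87 CPM to 3.07, 3.31 and 2.75 CPM (log2 fold change -1.52, SE 0.18, adjusted p = 0.000466).

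Among effectors of semaphorins and plexins, 8 of 18 tested were called, 3 higher and 5 lower. RND3, a small GTPase known to dissolve actin stress fibres, rose from 50, 60.5 and 62.1 CPM to 180, 172 and 181 CPM (log2 fold change 1.63, SE 0.1, adjusted p = 1.52e-05). DPYSL2, the collapsin response mediator that carries SEMA3A signals to microtubules, was at 12.7, 25.4 and 25.6 CPM in NC and at 8.12, 7.59 and 7.63 CPM after si-EIF5A2. NC replicate 1 stood below the other NC libraries but above all si-EIF5A2 libraries, and DPYSL2 was called lower (log2 fold change -1.45, SE 0.26, adjusted p = 0.00447). Of 20 Eph and ephrin effectors, 2 were called, and ABL2, a kinase that remodels actin, rose from 81.6, 90 and 87.4 CPM to 213, 185 and 219 CPM (log2 fold change 1.25, SE 0.09, adjusted p = 3.3e-05). Of 7 Slit and Robo effectors, 1 was called, and of 11 netrin effectors 2 were called higher and 2 lower. ABLIM1, an actin-binding protein, fell from 29.2, 30.4 and 31.4 CPM to 12.5, 8.2 and 11.3 CPM (log2 fold change -1.51, SE 0.16, adjusted p = 0.000244). Of 25 genes of the actin cytoskeleton output, 2 were called higher and 6 lower. The latter included CDK5, a kinase that phosphorylates collapsin response mediators (12.1, 11.3 and 11 CPM in NC, 4.28, 3.54 and 4.69 CPM after si-EIF5A2, log2 fold change -1.46, SE 0.15, adjusted p = 0.00023), and the kinase PAK6, which was low in NC (0.988 to 1.38 CPM) and at 0.137 to 0.23 CPM, near what 3 fragments are worth, after si-EIF5A2 (log2 fold change -2.68, SE 0.44, adjusted p = 0.00221). CDK5 shares 11.3% of its exon bases with SLC4A2 on the opposite strand, which had 26610 counts over all libraries against 2828 for CDK5. PAK6 shares 39.5% with BUB1B-PAK6 on the same strand, which had 2 counts. LRIG1 shares 12.9% with SLC25A26 on the opposite strand. Whether counting used strand is not given, so these levels are less certain.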

How the data were processed

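RNA of cells labelled SKOV3 and transfected with NC or si-EIF5A2 was measured in 3 libraries per group, grouped by the sample labels; the time of 48 h is stated for the series. From paired-end reads of mRNA libraries the authors ran StringTie and ballgown; the values deposited are estimated counts, whole numbers that were not normalized. The submitters' processing notes name Bowtie 0.12.2 and 2 mouse builds, which cannot hold for a table of human gene identifiers; the human build and annotation are not given in the sources used here, nor is whether counting used strand. Low values are spaced by about 3.71, so 1 fragment is worth several counts, and 3 fragments correspond to 0.15 to 0.237 CPM. Such limits cover counting error only.

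Members and gene lists were chosen with earlier results of these data known. Positions and exon lengths were taken from GENCODE 29 (GRCh38), and 58472 of 58825 identifiers had a symbol. Counts were rounded, which changed none, and tested with edgeR 4.0.16 (R 4.3.3) with filterByExpr, TMM normalization (factors 0.985 to 1.01), robust quasi-likelihood fits and p-values adjusted over 16208 genes by Benjamini-Hochberg. All members called, all members with a mean of at least 10 CPM, the called co-receptors and the 5 most changed called genes of the signalling list in each direction were named. The SE was obtained as the log2 fold change over the root of the F statistic. The test was checked on simulated counts. The alternatives were DESeq2 1.42.0, RLE and upper-quartile scaling, other count filters, counts divided by their step, a replicate block, other thresholds, and each library left out in turn. Replicate numbers did not pair the libraries: deviations of same-numbered libraries correlated at -0.0244, 0.00522 and -0.00269. The result of 1 marker list is not reported here.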

Additional observations from a re-analysis of the deposited data

How the results depend on the processing

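The number of guidance genes called, 24, was 22 to 25 under DESeq2, RLE or upper-quartile scaling, other count filters, counts divided by their step and the replicate block, and 19 to 23 when each library was left out in turn. DESeq2 called all 24 and added SLIT3. With the replicate number as a block, 22 were called, EFNA3 and NTN1 being lost. At an unadjusted p under 0.05 and a fold over 2, 15 were called, 8 of them higher, beside 14.6% of all genes. At that threshold the signalling list gave 12 of 96 tested in place of 30, a share below that of all genes. With an adjusted p under 0.05 and no fold limit the list gave 53 of 96, beside 36.9% of all genes. Whether the list exceeded all genes thus depended on the threshold. When each library was left out, the genes called higher numbered 11 to 14 and those called lower 7 to 10, the signalling list gave 30 to 32, and the log2 fold change of EIF5A2 was between -3.10 and -2.82. Of 480 values over 37 guidance genes (those called or at 10 CPM or more) and 13 other fits, 456 kept their direction and their side of the threshold, 22 lost the call and 2 turned direction: EFNB1 was -0.02 without NC replicate 3 (-0.02 to 0.07 over the libraries left out) and SEMA4C was 0.02 without NC replicate 2 (-0.35 to 0.02), neither called in any fit. The 7 genes that lost a call somewhere were EFNA3, NTN1, PLXNA4, ROBO3, ROBO4, NRP1 and SEMA5A; the cause was not tested. Low counts limit NTN1, SEMA3A, SEMA5A and EFNA3, and no p under 0.10 is possible in an exact test of 3 against 3 libraries.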
